A study of Mus musculus with 24 samples.

Results

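The binding sites of the homeodomain factor Prrx1 in wild-type (WT) mouse embryonic fibroblasts (MEF) were sorted by the histone marks around them. All 3048 summits of the MEF Prrx1 ChIP-seq list were used, out of 16746 Prrx1 summits listed for 3 fibroblast types. A summit was called acetylated when a summit of histone H3 acetylated at lysine 27 (H3K27ac) in MEF WT lay within 500 bp. It was called H3K4me3-marked when a region of H3 trimethylated at lysine 4 overlapped the summit with 250 bp on each side. This gave 150 summits with both marks, 475 acetylated only, 137 with H3K4me3 only and 2286 with neither.

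MEF were isolated from embryos at day 10 to 13 and, like the other fibroblasts of the study, carried the papillomavirus genes E6 and E7, which immortalise cells. The MEF genotypes used here were WT, for which the labels name a non-targeting guide (SgNS) as the control, then SG, in which Prrx1 was deleted with a CRISPR guide, and KI, read as the line from the Prrx1 mutant mice that the labels name 129S-Prrx1tm1Jfm/Mmmh, although the strain label of all 3 is C57BL/6. Cancer-associated fibroblasts from MMTV-PyMT mammary tumours (MMTV-CAF, strain FVB/NJ) and fibroblasts from day 10 skin wounds (strain C57BL/6), both WT, were set beside them. Each group has 1 library, so no p-value is given, and whether cells came from 1 or several embryos is not stated.

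Prrx1 belongs to the paired-class homeodomain factors, which contact DNA through a short A- and T-rich core and can bind palindromic pairs of it. It is made in limb and face mesenchyme and in activated fibroblasts. H3K27ac marks active enhancers and promoters, and H3K4me3 marks the start sites of genes that are transcribed or poised. The 4 classes state only which of these marks were listed, and were not taken as promoters or enhancers. Unmarked, as used below, means that neither of these marks was listed, and other marks were not examined. E-boxes are the sites of basic helix-loop-helix factors, and the letters CAGATG are the form that Twist-type dimers prefer.

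The sequence under the summits differed between the classes, and some of the strongest sites are shown. Each line below gives 101 bases of mm9, plus strand, centred on the summit. Capitals mark a tandem run of AATT of 12 bases or more, the homeodomain palindrome TAATTA, the E-box word CAGATG or its complement CATCTG, and a homeodomain core (TNAT or ATNA) that lies 6 letters from that E-box. Of the 3 strongest summits with neither mark and a TAATTA, 2 are shown, as the other lies in a UTR. Their nearest protein-coding transcription start sites (TSS) are those of Coch, which encodes a matrix protein of the inner ear (chr12:52672199-52672299, intergenic, 22.1 kb from the TSS, score 78.1), and of C1qa, a complement subunit (chr4:136464636-136464736, intergenic, 9.97 kb, score 73.0). The score is the authors' peak-caller value on a −log10 scale.
Coch, neither mark: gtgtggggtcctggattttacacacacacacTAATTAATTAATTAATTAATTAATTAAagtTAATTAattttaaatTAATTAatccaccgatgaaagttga
C1qa, neither mark: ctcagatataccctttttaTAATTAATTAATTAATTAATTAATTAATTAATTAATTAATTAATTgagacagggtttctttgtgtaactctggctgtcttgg
Both are built around an uninterrupted AATT repeat. Most of the acetylated sites shown look different. They were picked from the 5 strongest of each acetylated class and the 3 strongest with a TAATTA near the summit. From the class acetylated only are shown the sites near Bnc2, a zinc-finger factor (chr4:84387453-84387553, intergenic, 66.5 kb, score 44.6), Kera, the corneal proteoglycan keratocan (chr10:97087871-97087971, intergenic, 18.1 kb, score 39.9), Clvs1 (chr4:9214536-9214636, in an intron, 16 kb, score 38.7) and Coro1c, an actin-binding coronin (chr5:114351662-114351762, in an intron, 7.05 kb, score 34.4).
Bnc2, acetylated only: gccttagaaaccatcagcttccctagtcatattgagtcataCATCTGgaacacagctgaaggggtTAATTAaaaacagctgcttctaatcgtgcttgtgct
Kera, acetylated only: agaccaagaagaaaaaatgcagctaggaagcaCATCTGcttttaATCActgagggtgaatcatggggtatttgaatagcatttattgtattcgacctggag
Clvs1, acetylated only: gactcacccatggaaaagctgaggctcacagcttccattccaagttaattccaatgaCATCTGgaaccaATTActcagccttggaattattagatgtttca
Coro1c, acetylated only: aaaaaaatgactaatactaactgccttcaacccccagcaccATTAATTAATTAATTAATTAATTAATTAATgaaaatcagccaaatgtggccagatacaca
From the class with both marks are shown the sites near Jmjd1c, a Jumonji-domain protein (chr10:66466207-66466307, intergenic, 92.6 kb, score 30.0), Cacna1c, a calcium channel subunit (chr6:118857880-118857980, in an intron, 128 kb, score 28.7), Leprel1, a collagen prolyl hydroxylase (chr16:26041732-26041832, in an intron, 64.1 kb, score 24.9) and Arid5a (chr1:36359585-36359685, intergenic, 4.94 kb, score 28.9).
Jmjd1c, both marks: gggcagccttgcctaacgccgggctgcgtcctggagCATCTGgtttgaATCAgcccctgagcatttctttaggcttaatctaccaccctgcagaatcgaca
Cacna1c, both marks: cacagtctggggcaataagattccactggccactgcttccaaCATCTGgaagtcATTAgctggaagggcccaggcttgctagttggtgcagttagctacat
Leprel1, both marks: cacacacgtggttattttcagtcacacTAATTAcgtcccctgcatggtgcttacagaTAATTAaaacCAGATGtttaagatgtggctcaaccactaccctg
Arid5a, both marks: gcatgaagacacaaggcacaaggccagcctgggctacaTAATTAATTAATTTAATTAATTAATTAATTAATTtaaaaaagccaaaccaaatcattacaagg
With H3K4me3 only, the sites near Slc35e1 (chr8:75014883-75014983, in an intron, 1.18 kb, score 25.4) and Rbm47, an RNA-binding protein (chr5:66540743-66540843, in an intron, 1.34 kb, score 23.8) are shown, the strongest with a TAATTA. Both are run sites and do not stand for the class, of which 10.9% held a run: its strongest summit, near Mll1 (40), and that near Akap13 (23.9) have a CAGATG and neither a run nor a TAATTA.
Slc35e1, H3K4me3 only: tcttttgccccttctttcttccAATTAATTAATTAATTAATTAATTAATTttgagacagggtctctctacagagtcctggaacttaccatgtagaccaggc
Rbm47, H3K4me3 only: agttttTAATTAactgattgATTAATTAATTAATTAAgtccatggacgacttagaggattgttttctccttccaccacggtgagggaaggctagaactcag
The E-box with a homeodomain core 6 letters away stands in the Kera, Clvs1, Jmjd1c and Cacna1c sites, and in each it is on or near the summit. At Leprel1 the core belongs to a TAATTA that ends 4 letters before the E-box. The Bnc2 site has an E-box and a TAATTA farther apart. The Coro1c and Arid5a sites hold an AATT run although they are acetylated. Their H3K27ac summits lay 293 and 487 bp away, the second close to the 500-bp limit. Not every strong site has these words: the second strongest acetylated-only summit, near S1pr3 (score 44.1), holds none of them in its 101 bases and is not printed. Also among the 3 strongest with a TAATTA and not printed are sites over 100 kb from the nearest TSS. That TSS is of Cldn23 (both marks, 23.1, 118 kb), Col3a1 (acetylated only, 21.6, 290 kb) and Camk1d (H3K4me3 only, 22.4, 255 kb). These sites hold neither a run nor the spaced pair in these bases.

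Most Prrx1 summits carried neither mark. That class took 75% of the list (Wilson 95% interval 73.4 to 76.5%), and acetylated only took 15.6% (14.3 to 16.9%). Summits with both marks made up 4.92% (4.21 to 5.75%) and those with H3K4me3 only 4.49% (3.81 to 5.29%). These and all later intervals cover counting error over summits and not differences between cultures, and the depth of the libraries is unknown. Summits with neither mark were not at the rim of acetylated sites: their median distance to an H3K27ac summit was 26.2 kb (23.8 to 29.0 kb), and 8.01% of them had one within 1 kb. At the 500-bp limit itself, 59 summits lay between 450 and 500 bp from an H3K27ac summit and 31 between 500 and 550 bp, with a median score of 7.43 on both sides.

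The identity of the cells was read from the marks at marker genes. H3K27ac was listed within 1 kb of a TSS of 13 of 15 fibroblast markers, and an H3K4me3 region covered a TSS of 14, against 10737 and 11637 of all 22172 genes. The counts were 1 and 2 of 15 epithelial markers, 0 and 2 of 13 endothelial, 0 and 1 of 13 blood cell, 1 and 3 of 13 neural and 1 and 0 of 12 muscle markers.

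Distance to genes separated the classes along H3K4me3. A protein-coding TSS lay within 1 kb of 36.0% (28.8 to 43.9%) of summits with both marks and of 21.2% (15.2 to 28.7%) of those with H3K4me3 only. For acetylated only the share was 1.05% (0.450 to 2.44%) and for neither 1.27% (0.885 to 1.82%), a difference of -0.216 points (Newcombe 95% interval -1.03 to 1.22) that did not exceed counting error. The median TSS distance was 7.68 kb (3.98 to 17.8 kb) for both marks, 2.35 kb (1.73 to 5.92 kb) for H3K4me3 only, 50.4 kb (43.0 to 63.1 kb) for acetylated only and 40.9 kb (37.9 to 44.5 kb) for neither. The median of acetylated only exceeded that of neither by 9.47 kb, with an interval of 1.25 to 22.6 kb. The interval of that difference included 0 under 4 of 10 other settings. It was 4 kb (-5.95 to 17.6 kb) without sites on the AATT repeats described below, 4.79 kb (-0.220 to 9.15 kb) with the TSS of all annotated genes, 5.78 kb (-1.98 to 24.3 kb) with H3K27ac within 250 bp and 9.09 kb (-5.65 to 25.7 kb) at a score of at least 10. Under the other 6 it was 8.18 to 12 kb with intervals above 0. Of the 137 H3K4me3-only summits, 40.9% lay between 1 and 10 kb from a TSS, more than within 1 kb.

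**Figure D1:**
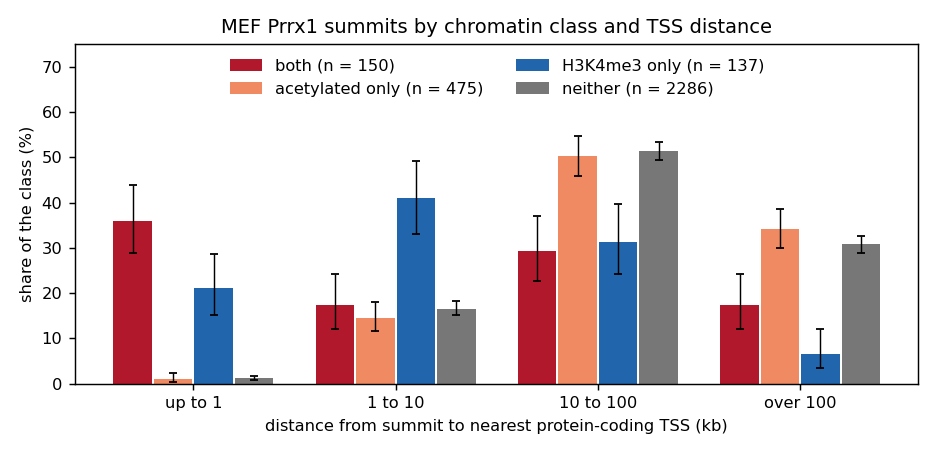
Share of each chromatin class of MEF Prrx1 summits (y axis, %) by distance to the nearest protein-coding TSS (x axis, kb), with Wilson 95% intervals as error bars. Summits within 1 kb make up 36.0% of the class with both marks and 21.2% of H3K4me3 only, against 1.05% of acetylated only and 1.27% of neither.

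Prrx1 summits with both marks were, with all listed marks counted, less often at promoters than H3K27ac summits with H3K4me3 in general. Among all MEF WT H3K27ac summits that overlap H3K4me3, 73.2% (14000 of 19134) lay within 1 kb of a TSS, and of those outside H3K4me3 2.14%. The promoter share of both marks depended on the strength asked of the marks: its difference over acetylated only was 34.9 points (27.6 to 42.9), and 71.7 points (59.8 to 81.0) with both marks at a −log10 p of at least 10, a setting under which the share of all H3K27ac summits was not computed. The H3K27ac summits beside Prrx1 in the class with both marks had a median score of 33.2 (28 to 39.1), above the 17.8 (15.9 to 19.5) of the class acetylated only and the 18.5 of the whole list. Their H3K4me3 regions were weak. The median −log10 p was 9.27 (7.33 to 16.3) and the median width 1148 bp (841 to 1615 bp) at both marks, against 27.3 (19.4 to 32.4) and 2412 bp (1821 to 2664 bp) at H3K4me3 only and 28.6 over the whole H3K4me3 list. Base composition went with the classes too: the median GC content of 501 bp was 45.1% at both marks, 41.9% at acetylated only, 40.9% at H3K4me3 only and 40.2% at neither, with a median of 9, 4, 5 and 3 CpG.

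Over all summits, the Prrx1 score was highest where no mark was found. Its median was 8.74 (8.61 to 8.93) with neither mark, 7.99 (7.43 to 8.61) with both, 7.54 (6.48 to 8.74) with H3K4me3 only and 7.43 (7.09 to 7.83) with acetylation only. The 5 strongest summits of the unmarked class scored 68.7 to 113, and the strongest acetylated one, near Bnc2, 44.6. The order changed when sites on tandem AATT repeats, described next, were left out. Without them, the median was 6.76 (6.72 to 7.05) with neither mark and 7.43 (6.98 to 7.54) with acetylation only, and the difference of neither over acetylated only turned from 1.31 (0.894 to 1.70) to -0.668 (-0.792 to -0.134). Among summits with a score of at least 10 that difference was 0.428 (-1.54 to 1.47). The difference of both marks over acetylated only was there 2.82 (-0.789 to 4.97).

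AATT runs of 12 bp or more within 100 bp marked 57% (55.0 to 59.1%) of the unmarked summits, 1304 of 2286. They were found at 4.63% (3.08 to 6.91%) of acetylated-only summits, 6.67% (3.66 to 11.8%) of those with both marks and 10.9% (6.75 to 17.3%) of those with H3K4me3 only. The difference between neither and acetylated only was 52.4 points, with an interval of 49.4 to 55.0. As background, 0.0880% of 201-bp windows of the genome held such a run, and 3 of 44918 H3K27ac summits. The run sat on the summit: its centre lay a median of 14.5 bp (13.5 to 16 bp) from it in the unmarked class. Runs of 28 bp or more stood at 289 unmarked summits, at 1 acetylated-only summit, at 1 with H3K4me3 only and at 0 of 150 with both marks, which allows up to 2.50%.

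The score rose with the length of the run. Unmarked summits without a run had a median score of 6.76, those with 12 to 15 bp 8.93, 24 to 27 bp 11.1, 32 to 39 bp 18.5 (15.2 to 22.0) and 40 bp or more 20.4 (17.3 to 33.6, 17 summits). The highest score of the list, 113, was at a run of 51 bp in a UTR 34.5 kb from the nearest TSS, that of the chromatin remodeller gene Chd9. The next were Coch, C1qa, Gm5567 (70.0, run of 39 bp) and the kinetochore gene Nuf2 (68.7, run of 56 bp, the longest of these). All 5 strongest summits of the unmarked class thus carried a run.

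From the side of the genome, 12048 AATT runs of 12 bp or more were counted, and 13.3% (12.7 to 13.9%) had a MEF Prrx1 summit within 100 bp. The share climbed from 5.94% (5.45 to 6.47%) of 8216 runs of 12 to 15 bp to 25.9% (23.1 to 29.0%) at 20 to 23 bp and 64.7% (57.7 to 71.2%) of 190 runs of 32 to 39 bp, and was 62.1% (44.0 to 77.3%) of the 29 runs of 40 bp or more. Wound-healing fibroblasts went the same way, from 4.37% to 74.2% (67.6 to 79.9%) over the same lengths and to 86.2% of those 29 longest runs. In MMTV-CAF the share was 3.25% to 8.95% up to 39 bp, and 0 of the 29 longest runs, which allows up to 11.7%. H3K27ac summits of MEF within 500 bp were found at 0.813% of all runs. Of the 17 runs of 20 bp or more with such an H3K27ac summit, 13 had a Prrx1 summit (76.5%, 52.7 to 90.4%), against 39.9% (37.8 to 42.2%) of the 1893 without. The 2 types with high shares are labelled C57BL/6 and the third FVB/NJ, so strain, cell type and library cannot be told apart here, and reads were not used to examine how repeats were mapped.

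**Figure D2:**
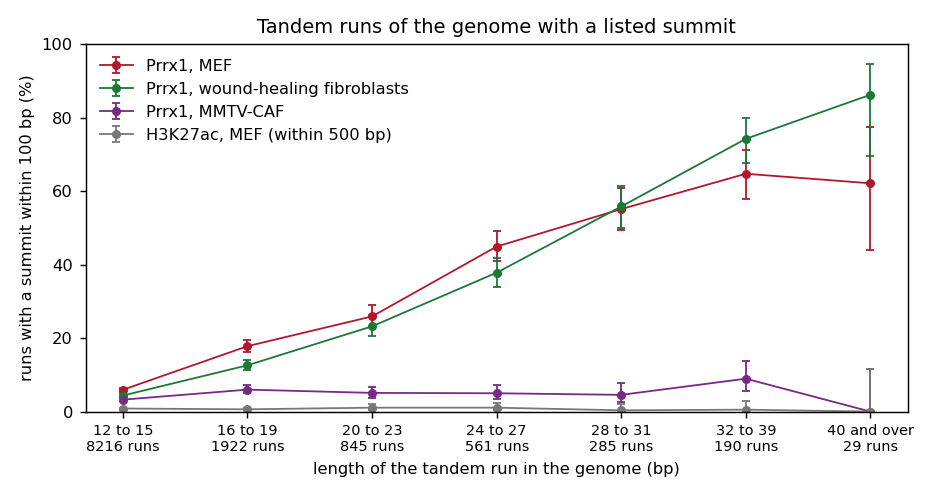
Share of all AATT runs of the genome with a listed summit (y axis, %) by run length (x axis, bp, with the number of runs), for the Prrx1 lists of 3 fibroblast types and the MEF H3K27ac list, with Wilson 95% intervals. MEF rises to 64.7% at 32 to 39 bp and wound-healing fibroblasts to 74.2%, while MMTV-CAF stays at or under 8.95% and H3K27ac at or under 1.07%.

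The palindrome TAATTA lies within a run, so its share followed. It was found within 100 bp of 79.7% of unmarked summits, 50.4% of those with H3K4me3 only, 35.3% with both marks and 34.5% with acetylation only, against 7.25% of genome windows and 2.41% of H3K27ac summits (windows centred on the H3K27ac summit, which lay a median of 0.270 kb from the Prrx1 summit where both were present). Neither exceeded acetylated only by 45.1 points (40.4 to 49.6), while both and acetylated only differed by 0.807 points (-7.62 to 9.75), and by 14.2 points (2.02 to 26.8) with both marks at a −log10 p of at least 10. Among summits without a run the shares were 52.6% for neither, 44.3% for H3K4me3 only, 30.7% for both and 31.3% for acetylated only. A gap of 21.3 points (15.9 to 26.4) between neither and acetylated only was left, and every class stayed above the 7.25% of the genome. The paired-class dimer, TAAT and ATTA with 2 letters between, which also lies inside longer runs, stood at 59.9% of unmarked and 6.74% of acetylated-only summits. Without a run the shares were 7.33% (5.86 to 9.13%) and 2.21% (1.20 to 4.02%).

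Acetylated summits were instead rich in the E-box word and in the AP-1 word TGANTCA, the site of Fos and Jun dimers. CAGATG lay within 100 bp of 36.8% of acetylated-only and 36.7% of both-marks summits, against 17.8% of unmarked ones, 19.7% with H3K4me3 only and 15.1% of genome windows. The difference between acetylated only and neither was 19 points (14.5 to 23.7), and 13.4 (8.27 to 18.7) without run sites. H3K27ac summits outside H3K4me3 held it in 16.6% of cases. TGANTCA was found at 29.7% of acetylated-only, 22.0% of both-marks, 10.2% of H3K4me3-only and 8.97% of unmarked summits, and at 5.96% of genome windows. Without run sites the unmarked share was 15% (12.9 to 17.3%), and the gap of acetylated only over neither 15.9 points (11.2 to 20.8) in place of 20.7 (16.6 to 25.1). GGAATG, the word of TEAD factors, followed with 20.2%, 20%, 13.1% and 10.4%, and 10.9% of windows. The GC box GGGCGG went with H3K4me3, at 12.7% of both-marks and 7.30% of H3K4me3-only summits against 2.74% of acetylated-only and 2.01% of unmarked ones. CACCTG, the E-box form of Zeb and Snai factors, was at 6.95% of acetylated-only and 10.8% of unmarked summits, no more often than in 11.9% of windows.

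The words also ran differently with the score. The list was split into quartiles of score, at 6.27, 8.41 and 12.2. In the unmarked class, TAATTA rose from 63.3% (59.0 to 67.4%) in the lowest quartile to 90.7% (88.1 to 92.8%) in the highest and the AATT run from 21.2% (17.8 to 24.9%) to 85.5% (82.5 to 88.1%), while CAGATG was at 19.8% and 17.3%. The rise of TAATTA belonged to the run sites: without them it was at 53.4% (48.5 to 58.3%) of unmarked summits in the lowest quartile and 35.6% (26.4 to 46.1%) in the highest. In the class acetylated only, TAATTA went from 28.3% (22.0 to 35.6%) over 39.1% and 45.2% (35.4 to 55.3%) to 28.4% (20 to 38.6%). CAGATG rose there from 23.5% (17.7 to 30.5%) to 65.9% (55.5 to 75%), and the AATT run from 1.20% (0.331 to 4.29%) to 9.09% (4.68 to 16.9%). Among unmarked summits without a run CAGATG rose as well, from 22.0% (18.2 to 26.4%) to 36.8% (27.4 to 47.3%), although over all unmarked summits it did not. Leaving out run sites, the highest quartile had CAGATG at 71.2% (60.5 to 80.0%) of acetylated-only, 54.1% (38.4 to 69.0%) of both-marks summits.

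**Figure D3:**
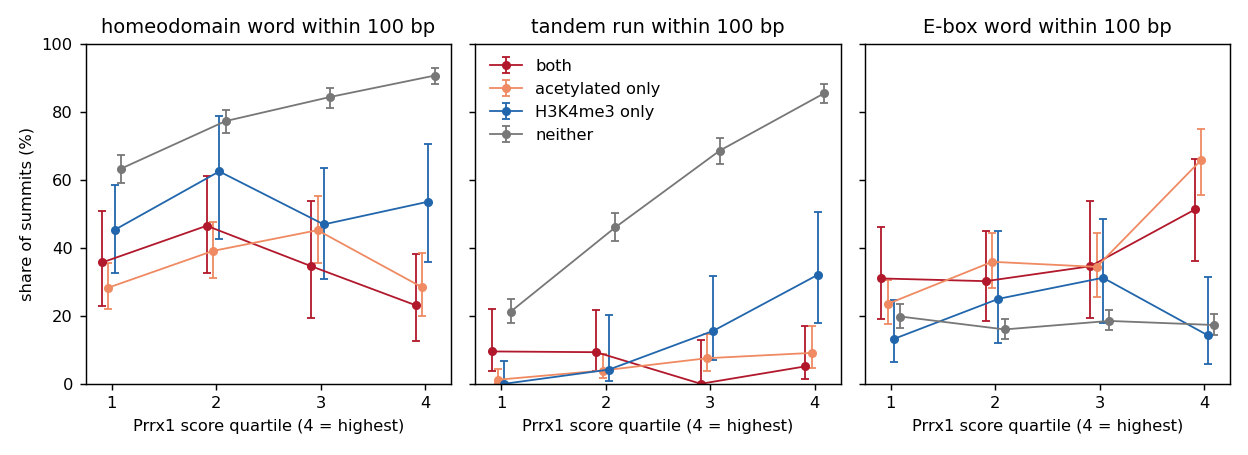
Share of summits (y axis, %) with TAATTA (left, homeodomain word), an AATT run of 12 bp or more (middle) and CAGATG (right, E-box word) within 100 bp, by score quartile of the whole Prrx1 list (x axis) and class, with Wilson 95% intervals. In the unmarked class the first and second features rise to 90.7% and 85.5%, and in the class acetylated only the E-box word rises to 65.9%.

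The homeodomain core and the E-box often stood at one distance. This was noticed in the printed sites and then counted, so the arrangement was chosen after its values were seen. Among the 228 acetylated summits with CAGATG and no run, TAAT preceded it with exactly 6 letters between in 40 (17.5%, 13.2 to 23%), whereas any other spacing from 0 to 20 was found in at most 4. The 243 unmarked summits with CAGATG and no run held it in 30 (12.3%, 8.79 to 17.1%), with at most 5 at any other spacing. ATTA 4 letters before CAGATG was the second form, in 21 acetylated and 18 unmarked summits, and a TAATTA that ends 4 letters before the E-box counts under both forms. Over all summits the composite of TAAT, any 6 letters and CAGATG was present at 6.53% of acetylated-only, 6.00% of both-marks, 1.46% of H3K4me3-only and 1.31% of unmarked summits, against 0.0504% of genome windows and 13 of 44918 H3K27ac summits. Allowing any letter at the second base of the core gave 10.9%, 10.7%, 2.92% and 2.10%, with 0.231% of windows. Among summits without a run the composite was at 6.84% (4.86 to 9.55%) of acetylated-only and 3.05% (2.15 to 4.33%) of unmarked summits, and the wider form at 11.5% and 4.68%. The wider form, like the AATT run, lay close to the summit. At acetylated-only sites without a run its middle was a median of 10.5 bp (7.50 to 15.5 bp) away, against 47.5 bp (35 to 55.0 bp) for the AP-1 word.

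**Figure D4:**
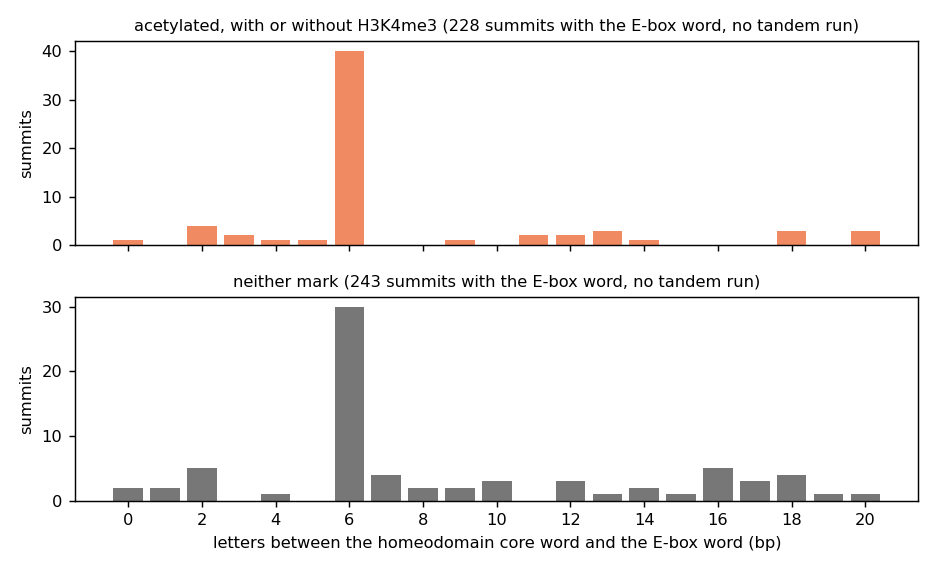
Number of summits (y axis) in which the homeodomain core precedes the E-box word, by the number of letters between them (x axis, bp), for acetylated summits (top) and summits with neither mark (bottom), without AATT run sites. The bars at 6 letters hold 40 and 30 summits, and no other bar holds more than 5.

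Genes were linked to summits in either of 2 ways: promoter-bound, with a TSS within 1 kb, and assigned, as the nearest protein-coding TSS within 100 kb. Of 22172 protein-coding genes, 7.90% (1752) were assigned a summit of any class. Acetylated summits, with or without H3K4me3, were assigned to 1.78% (395), with 0.537% (119) for both marks and 1.28% (283) for acetylated only, and unmarked summits to 6.22% (1380). The acetylated and unmarked lists share 101 genes, 25.6% of the first and 7.32% of the second. H3K4me3-only summits were assigned to 113 genes, 0.510%. A summit lay within 1 kb of a TSS of 0.555% (123) of genes, and an acetylated one of 0.293% (65). Promoter-bound genes numbered 60 (0.271%) for both marks, 5 (0.0226%) for acetylated only, 29 (0.131%) for H3K4me3 only and 29 (0.131%) for neither. No gene was promoter-bound both in an acetylated (0.293% of genes) and in an unmarked class (0.131%). At shares this small a shared gene would be rare in any case.

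The promoter-bound genes with both marks are given by the 10 highest scores. Among all matrix genes of the list described below, 5 of 59 were promoter-bound in any class, against 0.555% of all genes. Col16a1, a fibril-associated collagen, had a summit 0.0370 kb from its TSS with a score of 18.8. The basement membrane gene Nid2 (19) and the elastic-fibre gene Emilin1 (17.6) had summits at 0.103 and 0.111 kb. Svep1, a secreted adhesion protein, was bound at 0.252 kb (15.1). The strongest of the class was Rttn, a centriole gene, with 21.8, followed by the receptor phosphatase Ptprs with 20.7. Arhgap1, a GTPase-activating protein, Sash1, the sphingosine-1-phosphate receptor S1pr2 and Ranbp9 made up the rest of the 10 highest, with 13.9 to 17.0. TAATTA was found at 50.0% (37.1 to 62.9%) of the 54 promoter summits with both marks and CAGATG at 25.9% (16.1 to 38.9%), beside 35.3% and 36.7% over the whole class, of which they are part.

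The promoters of the other classes are given by their 5 highest scores. With H3K4me3 only, Mll1, which encodes a methyltransferase of H3K4, had the highest score, 40 at 0.157 kb, then Hexim2, an inhibitor of transcription elongation, (16.3), the kinase Srpk2 (15.7), Sertad4 (14.1) and Cxxc4, a Wnt inhibitor, (13.9, with a run of 18 bp). The Mll1 and Hexim2 summits lay 502 and 532 bp from an H3K27ac summit, just outside the 500-bp limit, so their class rests on that limit. Unmarked promoter summits were mostly repeats: 19 of 29 held an AATT run. The highest was at Postn, the matricellular protein periostin, at 0.426 kb (score 20.4, run of 29 bp), followed by Ido1 (19.3, 30 bp), Coil (18.9, 7 bp), Apobec2 (17.3, 42 bp) and Kcnh8 (16.5, 26 bp). The acetylated-only promoters, Abhd5, Il18rap, Fndc7, Cp and Recql, had scores of 5.78 to 9.81.

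Genes of the extracellular matrix were examined first among the lists. Of 59 matched matrix genes, 12 (20.3%) were assigned an acetylated summit, against 1.78% of all genes, and 14 (23.7%) an unmarked one, against 6.22%. No test of a list was made. The strongest acetylated one was 41.4 kb from Fbn1, which encodes fibrillin (30.9, acetylated only), then Efemp1, a fibulin (22.4, acetylated only, 16.1 kb), Col16a1 and Emilin1. At Loxl2, a collagen cross-linking oxidase, the score was 17.1. Col1a2, a chain of type I collagen, had a summit with both marks at 6.54 kb (7.99, run of 12 bp) and 2 with H3K4me3 only. Dcn, the proteoglycan decorin, was bound at 0.0730 kb with both marks (8.93). The strongest unmarked sites of the list were at Col14a1 (44.7, run of 32 bp), Col4a2 (22.0, 24 bp), Tnc (21.9, 31 bp) and Postn, all 4 of them on AATT runs.

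The next lists are read against the same shares of all genes, 1.78% with an acetylated and 6.22% with an unmarked summit. Growth factor genes had 5 of 42 members (11.9%) with an acetylated summit, at Nrg1, a ligand of ErbB receptors, (19.8, 25.9 kb), Fgf1 (8.74), Fgf7 (2 summits, 4.70 and 7.83), Kitl (6.61) and the receptor gene Egfr (3.76), and 9 (21.4%) with an unmarked one. The Fgf7 promoter itself carried H3K4me3 only (10.5 at 0.0340 kb). In the TGF-beta and BMP pathway, 4 of 58 (6.90%) had an acetylated summit and 9 (15.5%) an unmarked one. The acetylated ones were at the ligands Gdf5 (15.1, 4.18 kb) and Tgfb3 (5.36), the latent complex protein Ltbp1 (7.43, run of 23 bp) and Tgfbi, a matrix protein named for its induction by TGF-beta (8.13 and 7.50). The Wnt pathway had 4 of 66 (6.06%), the co-receptor Lrp6 (21), the transcription factor Tcf7l2 (18.7, both marks), Rspo2 (9.71) and the ligand Wnt16 (5.53), with 8 (12.1%) unmarked. Contractile and adhesion genes had 4 of 45 (8.89%), among them Cnn3 (9.50), Palld (8.66) and Itga8 (3.76), with 6 (13.3%) unmarked. The highest score of the TGF-beta and BMP list was unmarked and on an AATT run, at Smad7 (31.2, run of 32 bp). The same held for Ctnnb1 in the Wnt list (28.2, 17 bp) and Mkl1 among contractile and adhesion genes (25.9, 33 bp). Among growth factor genes the highest unmarked score was 19.5, at Egfr (run of 18 bp).

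Among regulators, 2 of 36 homeobox genes of limb and face mesenchyme (5.56%, against 1.78% of all genes) had an acetylated summit: Prrx2, the closest relative of Prrx1 (18.7, acetylated only, 1.13 kb), and Meis2, a Hox cofactor (10.3, 97.0 kb). An unmarked summit was assigned to 6 of the 36 (16.7%, against 6.22%). Of 48 other mesenchymal transcription factors there were 4 (8.33%), the E-proteins Tcf4 (15.7, both marks) and Tcf12 (7.43 at each of 2 summits), which are partners of Twist, Hand2 (6.90, both marks), a bHLH factor of the limb, and Foxp1 (5.21, both marks), with 9 (18.8%) unmarked. The highest score among these 48 genes was unmarked, at Runx3 (31.4, run of 18 bp). None of the 39 Hox genes was assigned a summit of any class, against 7.90% of all genes, and no test was made. The study drew its 8 candidate master factors of fibroblasts from data of this series, so that list is no independent choice. Of these 8, 0 were assigned an acetylated summit, against 1.78% of all genes, so that a count of 0 does not set them apart. An unmarked summit was assigned to 4 of the 8 (50.0%, against 6.22%), and no test was made. Of those 4, 1, Prrx1, also had H3K4me3-only summits. At Prrx1 the summits were 0.0650 kb (score 3.60, in a UTR) and 1.23 kb (5.77) from a TSS with H3K4me3 only, and 12.1 kb away with neither mark (11.3). The nearest to Klf13 had neither mark and scored 39.2 (25.7 kb, run of 21 bp), Klf4 15.3 (36.8 kb, run of 12 bp) and Tead1 6.70 (61.7 kb, run of 22 bp). For Junb the nearest summit, at 51.2 kb, is assigned to another gene, and for Fosl2, Cebpb and Nfix it was over 100 kb away (273, 209 and 127 kb).

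Fibroblast markers were assigned an acetylated summit in 4 of 15 cases (26.7%), at Col1a2, Col5a1, Dcn and Lum, and an unmarked one in 7 (46.7%). Markers of other cell types were assigned acetylated summits in 0 of 15 epithelial, 0 of 13 endothelial, 0 of 13 blood cell, 0 of 13 neural and 1 of 12 muscle genes (Acta1, 6.23). The share over all genes was 1.78%, so that a count of 0 in lists of this size does not set them apart from other genes. Unmarked summits were assigned to 2, 3, 0, 2 and 0 of them. Several members of these lists overlap, as Col1a2, Col5a1, Dcn and Lum are also matrix genes.

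The genes with most summits are named for each class. Ptn, the growth factor pleiotrophin, had 3 acetylated-only summits with scores of 5.31 to 11.3. Rbms3, Flt1, Lrp6 and Ptgs1 had 2 each. With both marks, the leading genes had 2 summits, among them Pcolce, an enhancer of procollagen cleavage (12.8 and 8.55 at 0.100 and 0.0240 kb), 9030425E11Rik, 4922502B01Rik, Tbccd1 and Odz3. Unmarked summits were most frequent at Gm15319 (9) and 4930467E23Rik (7), 2 loci on chromosome 8 with no run among these summits, then Inpp4b (5), Bnc2 (5) and Chd9 (4). The summits of Gm15319 and 4930467E23Rik lie in the densest bin of chromosome 8. That bin starts at 19 Mb and holds 23 summits, against a median of 3 per bin. H3K4me3-only summits were also led by Gm15319 (6, in the same bin), then Gm13225 (3), Speer4c, Col1a2 and Cdk14 (2 each).

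Summits with both marks were the most widely shared. A Prrx1 summit lay within 500 bp in MMTV-CAF for 68.7% (60.9 to 75.5%) of them and in wound-healing fibroblasts for 58.7% (50.7 to 66.2%). For acetylated only the shares were 53.9% (49.4 to 58.3%) and 45.1% (40.6 to 49.5%), and for H3K4me3 only 47.4% and 36.5%. Unmarked summits were found in MMTV-CAF in 20.3% (18.7 to 22.0%) of cases and in wound-healing fibroblasts in 38.0% (36.0 to 40%). The difference of acetylated only over neither was thus 33.6 points (28.7 to 38.3) in MMTV-CAF and 7.08 points (2.23 to 12) in wound-healing fibroblasts. The second difference fell to 0.470 points (-6.15 to 7.44) with H3K27ac taken within 250 bp and to 4.32 points (-0.476 to 9.21) with sharing counted within 250 bp. Unmarked summits with a run were at 15.8% and 48.8% in the respective lists and those without a run at 26.4% and 23.5%. Without run sites the excess of acetylated only was 27.7 and 20.8 points. Of the 5 strongest acetylated-only sites, near Bnc2, S1pr3, Kera, Ccdc97 and Clvs1, all were present in both other lists, as were all 5 strongest with both marks.

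**Figure D5:**
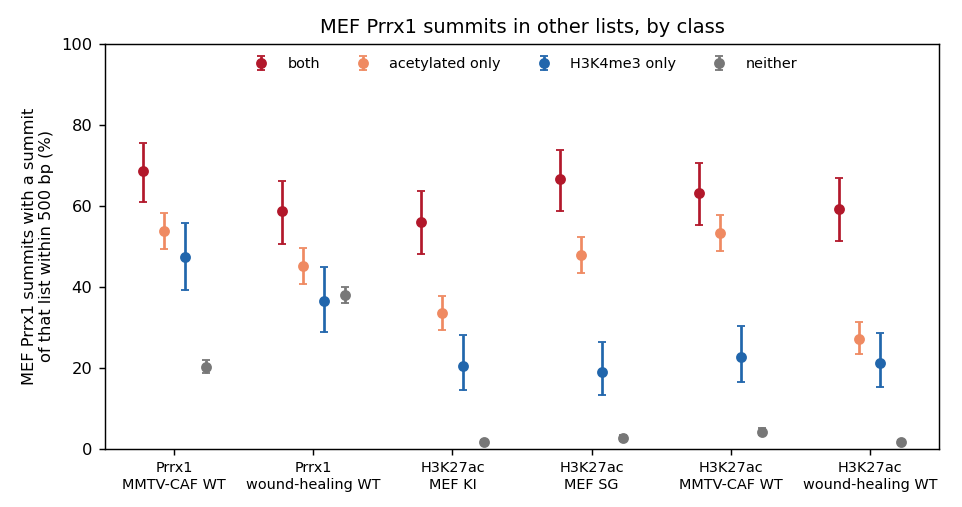
Share of MEF Prrx1 summits (y axis, %) with a Prrx1 or H3K27ac summit of another list within 500 bp (x axis), by chromatin class, with Wilson 95% intervals. Summits with both marks are highest in each of the 6 lists, from 56.0% to 68.7%, and unmarked summits reach 20.3% and 38.0% in the Prrx1 lists and 1.57% to 4.24% in the H3K27ac lists.

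The study asked what becomes of acetylation without Prrx1. H3K27ac was listed within 500 bp of 56.0% (48.0 to 63.7%) of both-marks summits in KI and 66.7% (58.8 to 73.7%) in SG, and of 33.5% (29.4 to 37.8%) and 47.8% (43.3 to 52.3%) of acetylated-only summits. Both KI and SG are set against the same WT lists. The classes differed by 22.5 points (13.4 to 31.2) in KI and 18.9 points (9.81 to 27.2) in SG, and the SG difference was 13.3 points (-2.67 to 27.1) at a Prrx1 score of at least 10. In the unedited lists of the other types MMTV-CAF gave 63.3% and 53.3%, and wound-healing fibroblasts 59.3% and 27.2%, so acetylated-only sites were listed less often in each of these 4 libraries. Unmarked summits were acetylated in 1.57% (KI) and 2.58% (SG) of cases. H3K4me3 regions overlapped 47.3% (KI) and 67.3% (SG) of summits with both marks, and 59.1% and 66.4% of those with H3K4me3 only.

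Seen from the H3K27ac summits, those outside H3K4me3 with Prrx1 within 500 bp were present in KI in 32.5% of 548 cases (28.7 to 36.5%), and those without Prrx1 in 32.5% of 25236. The difference was -0.0591 points (-3.89 to 4.01), over groups that differ in their mix of H3K27ac scores. In SG the shares were 47.6% and 58.5%, a difference of -10.9 points (-15.1 to -6.65). For H3K27ac summits overlapping H3K4me3, the difference was -4.01 points (-11.6 to 3.28) in KI and -11.9 points (-19.2 to -5.49) in SG. The unedited wound-healing list gave -6.77 (-10.3 to -2.89) and -13.2 points (-20.7 to -6.37) for the same groups, and MMTV-CAF 1.67 (-2.56 to 5.82) and -9.50 points (-16.9 to -2.77). Pooled over scores, H3K27ac at Prrx1 sites was thus listed less often than elsewhere in SG, in the WT list of wound-healing fibroblasts and, where it overlapped H3K4me3, in that of MMTV-CAF, and with 1 library per genotype the genotype and the culture cannot be told apart.

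The gap in SG was wide in the lower quartiles of H3K27ac score and narrow in the highest. Outside H3K4me3, in the lowest quartile, 18.5% (12.7 to 26.0%) of 130 summits with Prrx1 were present in SG and 40.5% (39.5 to 41.5%) of those without. In the second quartile the shares were 33.5% (26.6 to 41.3%) of 155 and 56.3% (55.2 to 57.4%), and in the third 62.3% (54.7 to 69.3%) and 78.1%. In KI the shares from the lowest to the highest quartile were 13.8% (8.94 to 20.8%) and 16.5%, 23.2% (17.3 to 30.5%) and 26.4%, 34.7% (27.9 to 42.2%) and 49.5% (48.3 to 50.8%), and 68.8% (58.9 to 77.1%) and 75.1%. Summits with Prrx1 were thus the lower ones in KI in each quartile outside H3K4me3, and in the third the intervals do not overlap. Over H3K4me3 the KI shares with and without Prrx1 were 5.26% (0.935 to 24.6%) of 19 and 14.2% in the lowest quartile. In the second they were 27.8% (12.5 to 50.9%) of 18 and 25%, and in the third 52.1% (38.3 to 65.5%) of 48 and 53.1%. In the highest they were 76.2% (66.1 to 84.0%) of 84 and 87.0% (86.3 to 87.7%), without overlap of the intervals. Only in the second quartile was the share with Prrx1 the higher one. For the highest quartile MMTV-CAF gave 77.4% and 86.1%, and wound-healing fibroblasts 84.5% and 92.9%. Outside H3K4me3, the WT lists gave for the lowest quartile 40% and 42% for MMTV-CAF, and 3.85% (1.65 to 8.69%) and 16.8% for wound-healing fibroblasts. For the third they gave 64.1% and 65.9%, and 32.3% (25.7 to 39.8%) and 49.1% (47.8 to 50.4%). The third-quartile gap of KI was thus also present in the unedited wound-healing list. In the highest quartile outside H3K4me3, 84.4% (75.8 to 90.3%) of 96 summits with Prrx1 were present in SG and 88.8% of those without.

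Summits were unevenly spread over chromosomes. Chromosome 8 held 387 of them, 12.7% of the list on 4.96% of the length of these chromosomes, and 325 of these were unmarked. Its density of 2.94 summits per Mb compared with 0.216 on chromosome X, and its density of H3K27ac summits was 19.3 per Mb, within the range of the other autosomes (11.5 to 25.6). The wound-healing Prrx1 list was also densest there, with 6.38 per Mb, but the MMTV-CAF list was not, with 2.88 per Mb against 7.55 on chromosome 15. Leaving out chromosome 8 changed no value followed under other settings beyond its error.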

How the data were processed

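Reads were trimmed (Trimmomatic), mapped to mm9 (Bowtie) and freed of duplicates by the authors, who then called peaks with MACS2. Of 24 samples, 13 deposited lists were used, and the 7 input samples gave no list. Column 5 of the deposited Prrx1 and H3K27ac summits is a score on the −log10 scale (p or q is not stated), and the deposited broad H3K4me3 regions give −log10 p-values and a fold (ratio) over input. The lowest Prrx1 score, 3.00, is under the cutoff of 5 that the study states. Prrx1 ChIP was described as done in duplicate. How duplicates entered a list is not given in the sources used here, and read depth is unknown.

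From these lists were computed, with Python 3.11.15 (pandas 2.3.3, numpy 2.4.6, scipy 1.17.1, pysam 0.24.0) and figures with matplotlib 3.10.9, the 4 classes, TSS distances to 22172 protein-coding genes of an mm9 (NCBIM37) annotation, and word counts within 100 bp on both strands of the mm9 sequence. The genome background used adjacent windows of 201 bp. AATT runs are uninterrupted repeats of these 4 letters of at least 12 bp. Words can overlap: TAATTA and the dimer of TAAT and ATTA 2 letters apart lie inside runs, and TAAT inside TAATTA. Gene annotation gave the place of each summit. All summits lay inside their chromosome, and 10 lay within 500 bp of another and were counted singly. Shares carry Wilson, differences Newcombe and medians order-statistic 95% intervals. With 1 library per group no test was run. The scripts were tested on simulated data.

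Genes were named as the 5 highest scores and the 3 highest with TAATTA per class, the 10 highest promoter-bound genes with both marks and 5 of each other class, the 5 genes with most summits per class, every candidate master factor and up to 4 leading members per list. In the lists, leading members were taken mainly from those with an acetylated summit, so stronger unmarked members can be missing. Further members of small lists, the AATT run and the composite of core and E-box were chosen after their values were seen. The members and lists were chosen with earlier results of these data known. Summits in UTRs and on chromosome 18 were left out of printed sequence. Alternatives were other distances, score cutoffs, merging of near summits, another gene set and another assignment distance, and, added after seeing the data, leaving out run sites or chromosome 8. A few named items are not reported here.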

Additional observations from a re-analysis of the deposited data

Results flagged for a closer look

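Among MEF Prrx1 summits with neither mark, the presence of an AATT run went with sharing in opposite directions in the other Prrx1 lists. In MMTV-CAF, 15.8% of the 1304 summits with a run and 26.4% of the 982 without one had a Prrx1 summit within 500 bp, a difference of -10.6 points (-14.0 to -7.20). In wound-healing fibroblasts the shares were 48.8% and 23.5%, a difference of 25.3 points (21.5 to 29.0). That the 2 differences have opposite signs is what drew attention to them, and the difference between them was not tested. MEF and wound-healing fibroblasts are labelled C57BL/6 and MMTV-CAF FVB/NJ, so cell type, strain and library cannot be told apart.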

How the results depend on the processing

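Of 174 recomputed values, 132 stayed within their error or 1.5-fold range, 41 moved and 1 reversed. Leaving out run sites (added after seeing the data) reversed the median score of neither minus acetylated only, from 1.31 to -0.668. It also gave class shares of 8.25% both, 26.7% acetylated only, 7.19% H3K4me3 only and 57.9% neither, a TAATTA gap of 21.3 points, 559 genes with an unmarked summit, and sharing gaps of acetylated only over neither of 27.7 points (MMTV-CAF) and 20.8 points (wound-healing). Taking H3K27ac within 250 bp gave 2.26% both, 6.96% acetylated only, 7.15% H3K4me3 only, 83.6% neither, a TAATTA gap of 33.9 points, 190 genes with an acetylated summit and sharing gaps of 25.9 and 0.470 points. Within 1000 bp the classes were 6.86%, 21.6%, 2.56% and 69.0%. Where H3K4me3 had to cover the summit base, both took 3.51%, acetylated only 17.0%, H3K4me3 only 3.51%, and the promoter share of both over acetylated only was 43.9 points. With marks of at least 10 on the −log10 scale, both took 2.17%, H3K4me3 only 3.15% and neither 79.2%, the promoter gap was 71.7 points and the TAATTA gap of both over acetylated only 14.2 points. With a Prrx1 score of at least 5, the MMTV-CAF sharing gap was 38.8 points. At 10 or more, acetylated only took 12% and neither 79.6%, the promoter gap of acetylated only over neither was -1.80 points, median score gaps were 0.428 (neither) and 2.82 (both) over acetylated only, the TAATTA gap was 57 points, 136 and 613 genes had an acetylated or unmarked summit, and sharing gaps were 55.7 and 16.3 points. Using the TSS of all annotated genes, both lay -23.2 kb from acetylated only in median TSS distance. The causes were not tested. A sharing window of 250 bp lowered the wound-healing sharing gap to 4.32 points (-0.476 to 9.21). No paired analysis was possible because each group has 1 library, and for the same reason no replicate could be left out. Unknown depth limits every share of absent marks: an unlisted mark may have been under the caller's cutoff.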

Other observations

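H3K4me3 at MEF Prrx1 sites was listed more often in MMTV-CAF than in wound-healing fibroblasts in every class. With both marks the shares were 84.0% (77.3 to 89.0%) and 58.7% (50.7 to 66.2%), and with H3K4me3 only 74.5% and 51.8%. Of the 475 acetylated-only summits, which by definition lack H3K4me3 in MEF WT, 30.3% (26.4 to 34.6%) overlapped an H3K4me3 region in MMTV-CAF, but 0.842% (0.328 to 2.14%) in wound-healing fibroblasts, 1.47% in KI and 1.05% in SG MEF. For unmarked summits MMTV-CAF had 3.76% (3.06 to 4.62%), and wound-healing fibroblasts 0.394% (0.207 to 0.747%). The lists were called separately in libraries of unknown depth, and the part of this in the values was not tested.

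The other Prrx1 lists, sorted by their own marks, had the E-box word and the AATT run in the same classes. For MMTV-CAF, CAGATG lay within 100 bp of 28.5% (25.8 to 31.5%) of 960 acetylated-only and 21% of unmarked summits. For wound-healing fibroblasts it was at 31.3% (27.8 to 35%) of 639 and 21.7%. AATT runs marked 12.1% (11 to 13.3%) of the unmarked and 1.77% of the acetylated-only summits of MMTV-CAF. For wound-healing fibroblasts the shares were 33.9% (32.3 to 35.5%) and 1.10%. Among summits with no MEF summit within 500 bp, TAAT with 6 letters before CAGATG was found in the MMTV-CAF list at 1.45% (0.833 to 2.52%) of acetylated-only and 1.46% of unmarked summits, and for wound-healing fibroblasts at 1.91% (1.04 to 3.48%) and 1.89%, each above the 0.0504% of genome windows. The composite was thus listed about as often at acetylated as at unmarked sites there.

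Of words not described so far, the E-box form CAGCTG was at 13.5% of acetylated-only and 16.7% of both-marks summits in MEF, against 8.88% of unmarked summits and 7.26% of genome windows. TGATTNAT, a word of Hox and Pbx pairs, was at 15.4% (13.9 to 16.9%) of unmarked and 10.7% (8.26 to 13.8%) of acetylated-only summits, against 3.69% of windows.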
